A study of Mus musculus with 7 samples.

Results

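The genes described here are 58 effector and receptor genes of the type I interferon response, measured in Tim4+ resident macrophages sorted from the peritoneal fluid of C57BL/6 mice. They were chosen by symbol. Each of the 58 symbols matched 1 row of the 57010 Ensembl genes in the count table, and all 58 passed the filter on low counts that left 15981 genes for testing. Poly-A RNA was sequenced from mice given m204 MTO 12 days earlier (4 libraries, called day 12) and from control mice in steady state (3 libraries). The labels leave MTO unexplained, the series concerns colorectal cancer in the peritoneum, and neither the age and sex of the mice nor any pooling of animals is stated in the sources used here. Live cells had been sorted on CD11b, MHC class II and Tim4, a phosphatidylserine receptor of long-lived macrophages of the cavity. The question was how the transcriptome of these cells at day 12 differed from that of steady state.

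Type I interferons bind a receptor made of the Ifnar1 and Ifnar2 chains. The kinases Jak1 and Tyk2 on that receptor then phosphorylate STAT proteins, which join Irf9 in a complex that binds interferon-stimulated response elements in promoters. The genes switched on in this way sense foreign or misplaced nucleic acid, block translation, degrade RNA, deplete nucleotides, modify proteins with the ubiquitin-like Isg15 and hold virus particles at membranes. Tissue macrophages carry many of these transcripts at a low level without infection, which is known as tonic interferon signalling.

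Total counts were 34578834 to 38586694 at day 12 and 32077050 to 36201021 in steady state. On these totals, before normalisation, 3 counts in a library stood for 0.0777 to 0.0935 CPM. CPM are counts scaled to a common library total, here after TMM normalisation, and are listed in the order of the replicate numbers, and errors are SD over n = 4 day 12 and n = 3 steady-state libraries. All 8 macrophage markers were present in each library, and at day 12 4 rose (Adgre1, Itgam, Gata6 and Mertk) and 2 fell. Timd4, which encodes the sorted protein Tim4, fell to 399 to 643 CPM at day 12, against 882 to 1043 CPM in steady state (log2 fold change -0.96, edgeR adjusted p = 0.00484), and Csf1r fell by 0.43 on the log2 scale (adjusted p = 0.0304). Summed levels of 7 B cell markers were 19.5 to 42.9 CPM at day 12 and 6.39 to 9.93 CPM in steady state, and 4 of the 7 rose (none fell). Of 6 plasmacytoid dendritic cell markers, which sum to 0.901 to 3.82 CPM at day 12 and 0.415 to 0.703 CPM in steady state, Siglech and Klk1 had no read in any library and Spib rose. For 8 T and NK cell markers the sums were 0.742 to 2.36 CPM at day 12 and 0.383 to 0.860 CPM in steady state. Of 5 monocyte markers (22.9 to 178 CPM at day 12, 45.2 to 48.7 CPM in steady state) Plac8 rose, Ccr2 fell and Fcnb had no read. The 7 neutrophil markers (109.5 to 198 CPM at day 12, 432 to 449 CPM in steady state) were nearly all Csf3r, with Ly6g at 0 and S100a9 below 1 CPM in each library. In bulk RNA, fewer cells of a type and less RNA per cell cannot be told apart.

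The element bound by the Stat and Irf9 complex could be looked for in the promoters of 45 of the 58 genes, which had a RefSeq window (GRCm38.p6) of 250 bases before to 50 bases after the annotated start. The letters searched for were GAAA, any 2 bases and GAAA, on either strand (TTTC, any 2 bases and TTTC when read on the other), and matches could overlap. They were present in windows of 22 of these 45 genes (48.9%), against 1079 of all 27025 genes with a window (3.99%). These stretches are shown because they hold the element in genes with contrasting behaviour at day 12, and because 3 paralogue pairs can be compared. Each is written 5′ to 3′ in the direction of the gene, ends before the annotated start, and has the matched letters in capitals (TTTC first where the match lies on the other strand, overlapping matches merged).
Isg15, chr4:156200855-156200916, minus strand: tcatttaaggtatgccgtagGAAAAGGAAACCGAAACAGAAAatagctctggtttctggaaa
Oas3, chr5:120777705-120777754, minus strand: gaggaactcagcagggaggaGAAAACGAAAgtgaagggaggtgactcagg
Rsad2, chr12:26456543-26456592, minus strand: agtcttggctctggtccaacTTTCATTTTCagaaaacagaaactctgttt
Ifit1, chr19:34640765-34640833, plus strand: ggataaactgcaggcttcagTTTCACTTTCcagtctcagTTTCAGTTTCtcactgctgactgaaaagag
Bst2, chr8:71537567-71537622, minus strand: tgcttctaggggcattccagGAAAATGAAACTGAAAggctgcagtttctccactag
Oas1a, chr5:120907526-120907565, minus strand: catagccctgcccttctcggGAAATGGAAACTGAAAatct
Oas1g, chr5:120887614-120887651, minus strand: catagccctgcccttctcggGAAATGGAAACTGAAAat
Ifit3, chr19:34583353-34583402, plus strand: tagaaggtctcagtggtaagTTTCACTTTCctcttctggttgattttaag
Ifit3b, chr19:34607749-34607798, plus strand: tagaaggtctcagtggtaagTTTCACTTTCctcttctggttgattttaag
Mndal, chr1:173880194-173880243, minus strand: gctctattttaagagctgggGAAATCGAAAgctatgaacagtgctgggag
Ifi203, chr1:173942498-173942547, minus strand: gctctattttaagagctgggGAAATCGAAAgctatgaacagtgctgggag
Isg15 has 3 overlapping matches in a run, and Ifit1 has 2 matches on the strand opposite to the gene. The stretches of Ifit3 and Ifit3b are identical in 50 of 50 bases, those of Mndal and Ifi203 in 50 of 50, and those of Oas1a and Oas1g in the 38 bases both share. The sources used here do not give how reads that match several places were counted, so the split of reads within such pairs, and within the IFIT, OAS, IFITM, IFI200, SLFN and PHF11 families in general, is uncertain.

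At day 12, 15 of the 58 genes rose and 1 fell (edgeR's quasi-likelihood test, Benjamini-Hochberg adjusted p of 0.05 over all genes tested). Over all 15981 genes the shares were 10.1% higher and 10.2% lower. The risers included the oligoadenylate synthetase-like gene Oasl1 (log2 fold change 2.84), the nucleic acid sensor Zbp1 (2.17), the dNTP hydrolase Samhd1 (1.07) and Isg15 (1.57), and the gene that fell was the receptor chain Ifnar1 (-0.89). Log2 fold changes were above 0 in 51 of the 58 genes, with a median of 0.46 against 0.00 over all genes tested. All 4 day 12 libraries lay above all 3 of steady state in 15 genes (16.5% of all genes tested) and below in 1 gene (18.5%). By gene family, the rises took in 3 of 6 OAS genes, 3 of 6 other nucleic acid sensors, 3 of 4 PARP and Dtx3l genes, 2 of 3 Isg15 system genes, 2 of 6 MX, viperin and nucleotide enzyme genes, 2 of 8 membrane and small IFI genes, 0 of 5 IFIT, 0 of 7 IFI200, 0 of 4 nuclear and 0 of 7 SLFN and other genes. At an unadjusted p of 0.05 in edgeR, 28 of the 58 genes and 16.8% of all genes tested were higher. Among them were 2 IFIT, 1 IFI200, 3 nuclear and 2 SLFN and other genes. DESeq2 called 0, 0, 1 (Xaf1) and 1 (Ifi44) of these families at its adjusted p. Whether the families differ was not tested.

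**Figure D1:**
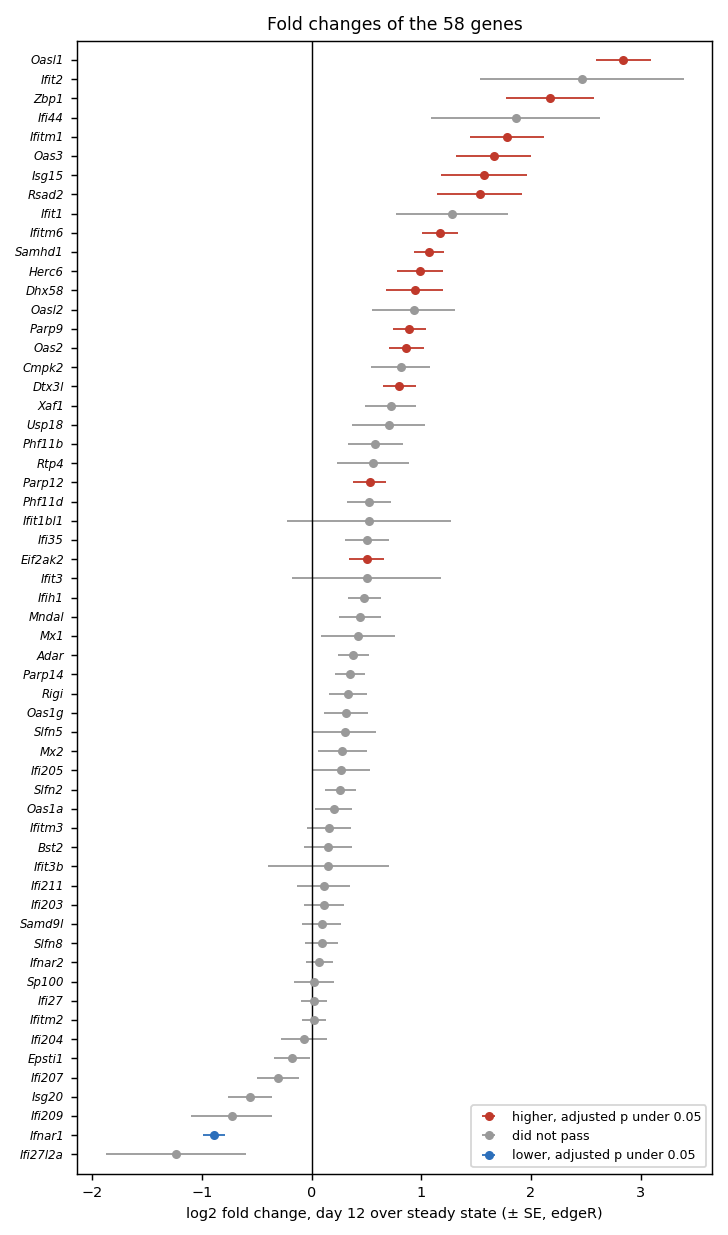
Log2 fold change of each of the 58 genes at day 12 over steady state (x axis, ± SE from edgeR), ordered by size. Red points are the 15 genes that rose, the blue point is Ifnar1 at -0.89, and grey points did not pass; Ifit2 at 2.46 and Ifi44 at 1.86 have among the widest errors and are grey.

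The 4 day 12 libraries were not alike in these genes, and replicate 3 stood apart. Replicate 3 held the lowest day 12 value in 48 of the 58 genes, against 23.9% of all genes tested, and replicate 2 the highest in 33, against 24.8%. The median log2 ratio of the 58 genes to their steady-state mean was 0.50, 0.78, -0.14 and 0.46 in day 12 replicates 1, 2, 3 and 4, and 0.04, -0.18 and 0.12 in steady-state replicates 1, 2 and 3. Over all genes tested the same median lay between -0.04 and 0.00 in each library. Replicates 1, 2 and 4 were all above the steady-state range in 34 genes (19.2% of all genes tested), and in those 34 replicate 3 was above it too in 15, within it in 11 and below it in 8. Over all genes tested, replicates 1, 2 and 4 were above it in 3069 genes, and in 2634 of these replicate 3 was above it too. Over the 58 genes, replicate 3 was above the steady-state range in 16 (36.4% of all genes tested), within it in 16 (23.1%) and below it in 26 (40.5%). Without replicate 3, 30 genes rose (9.49% of all genes then tested were higher) and 1 fell (8.79% lower), and the 15 genes that rose over all libraries were among the 30. Replicate 3 was singled out by its low values in these same genes, so the larger count without it is no separate evidence of rises. The same holds for the adjusted p given below for single genes without it. It holds as well for Isg20, Ifi209 and Mndal, where the library left out below is the one whose omission made the gene pass. In steady state, replicate 2 held the lowest value in 45 of the 58 genes, against 33.0% of all genes tested. Without it 9 genes rose, and the share of all genes in that fit was not computed.

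**Figure D2:**
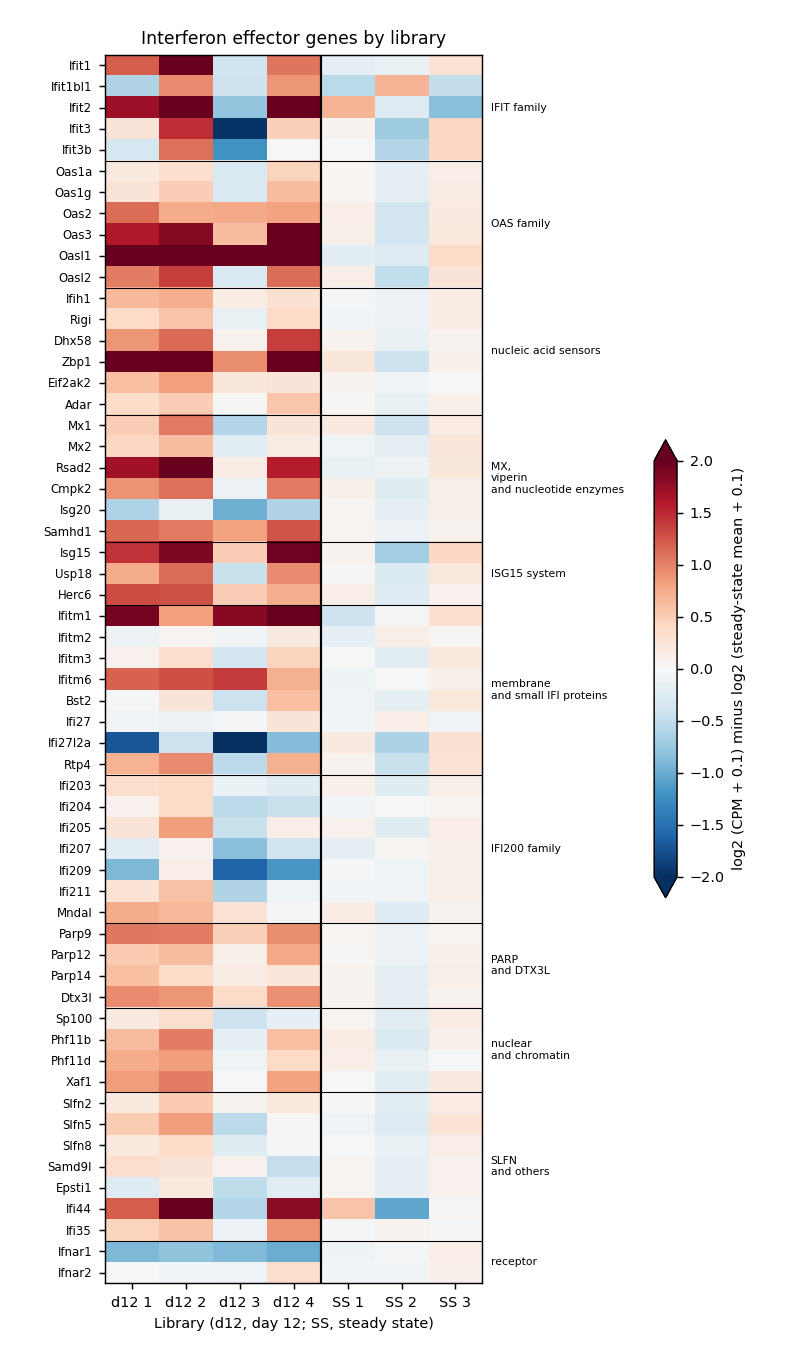
Log2 ratio of each gene (rows, grouped by role) to its steady-state mean in each library (columns, 0.1 CPM added), with day 12 on the left; colours end at -2 and 2. The column of day 12 replicate 3 is pale or blue in most rows, with medians of 0.50, 0.78, -0.14 and 0.46 over the 4 day 12 columns.

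The spread between day 12 libraries was wider than that in steady state for 53 of the 58 genes, where the share of all genes tested was 79.8%. The median SD of log2 CPM was 0.40 at day 12 and 0.20 in steady state over the 58 genes, and 0.27 at day 12 and 0.13 in steady state over all genes tested. Among other cell types' markers, day 12 replicate 2 had the highest sum for B cells (42.9 CPM, against 22.1, 19.5 and 19.8 CPM in replicates 1, 3 and 4) and for plasmacytoid dendritic cells (3.82 CPM, against 0.901, 1.6 and 1.45 CPM). The latter sum was led by Spib in each day 12 library (2.87 CPM in replicate 2). Ccr9 of the same list was lower at day 12 (0 to 0.0526 CPM) than in steady state (0.119 to 0.224 CPM). Replicate 3 had the lowest sum for monocytes (22.9 CPM, against 45.3, 134 and 178 CPM in replicates 1, 2 and 4), a sum led by Plac8 at day 12 in replicates 1, 2 and 4. Of 8 genes that respond to cell handling, 5 rose at day 12 and 2 fell. The log2 fold changes were 3.31 for Fosb, 2.75 for Egr1, 2.37 for Fos, 1.21 for Junb and 0.81 for Atf3, and -1.86 for Hspa1a and -2.09 for Hspa1b. The part of these markers and handling genes in the spread and in the rises was not tested. Day 12 replicates 3 and 2 were the most deeply sequenced libraries, with 38586694 and 38388234 counts. The part of sequencing depth was not tested.

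**Figure D3:**
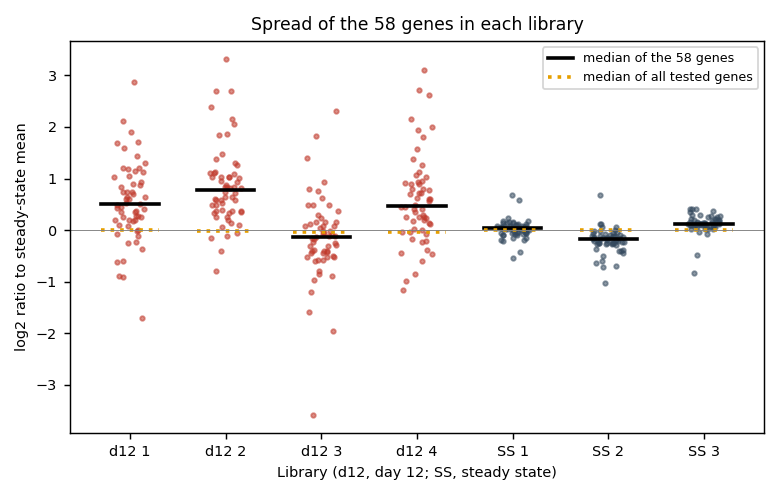
Each point is 1 of the 58 genes, as the log2 ratio to its steady-state mean (y axis, 0.1 CPM added) in each library (x axis). Black bars are medians of the 58 genes (0.50, 0.78, -0.14 and 0.46 at day 12) and dotted bars are medians of all tested genes, which stay between -0.04 and 0.00.

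Of the receptor chains, Ifnar1 fell and Ifnar2 did not pass. Ifnar1 (ENSMUSG00000022967, GRCm39 chromosome 16, 91282126 to 91304329) had 73.0, 78.1, 73.4 and 68.3 CPM at day 12, against 127, 133 and 149 CPM in steady state. All day 12 libraries were lower, replicate 3 was no exception, and the level fell by 0.89 on the log2 scale (SE 0.10, edgeR adjusted p = 0.000478). Ifnar2 (ENSMUSG00000022971, chromosome 16, 91169671 to 91202477), the chain that binds interferon with the higher affinity, had 53.9, 51.8, 50.3 and 68.1 CPM at day 12 and 51.7, 51.7 and 57.1 CPM in steady state. The groups overlapped and it did not pass (log2 fold change 0.07, adjusted p = 0.755). The difference between the chains was not tested.

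In the OAS family, whose synthetases make the oligoadenylates that activate RNase L, Oasl1 rose most. Oasl1 (ENSMUSG00000041827, chromosome 5, 115061299 to 115075974), a member known in mouse as an inhibitor of Irf7 translation, had 14.3, 12.7, 9.71 and 16.8 CPM at day 12 and 1.6, 1.54 and 2.46 CPM in steady state. The lowest day 12 library stood well above the highest of steady state (log2 fold change 2.84, SE 0.25, edgeR adjusted p = 0.000163). Oas2 (ENSMUSG00000032690, chromosome 5, 120868398 to 120887918) had 411, 316, 317 and 328 CPM at day 12 and 207, 146 and 213 CPM in steady state (log2 fold change 0.86, SE 0.16, adjusted p = 0.00566). Here replicate 1 was high and replicate 3 was level with replicates 2 and 4. Oas3 averaged 146 ± 56.9 CPM at day 12 and 46.3 ± 9.5 CPM in steady state and rose (log2 fold change 1.66, adjusted p = 0.0114, but 0.0535 with no filter on low counts). The other members did not pass. Oasl2 averaged 155 ± 62.5 CPM at day 12 and 81.2 ± 20.9 CPM in steady state (adjusted p = 0.128), and the near-identical Oas1a and Oas1g had 65.8 ± 13.7 and 64.1 ± 16.3 CPM at day 12, against 57.4 ± 6.16 and 51.8 ± 6.11 CPM in steady state.

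Among the sensors, Zbp1 (ENSMUSG00000027514, chromosome 2, 173048405 to 173060716), which binds Z-form nucleic acid and can start necroptosis, had 138, 167, 61.0 and 209.6 CPM at day 12 and 37.5, 23.9 and 34.3 CPM in steady state. Replicate 3 was the lowest of day 12 and still above steady state (edgeR adjusted p = 0.00852, log2 fold change 2.17, SE 0.40). The RNA helicase gene Dhx58 rose (69.5 ± 23.8 CPM at day 12, 36.1 ± 3.01 CPM in steady state, adjusted p = 0.0352), although day 12 replicate 3 (37.9 CPM) was among the steady-state values (32.6 to 38.0 CPM). The RNA-activated kinase gene Eif2ak2 was at the threshold (84.6 ± 17.2 CPM at day 12, 59.8 ± 3.43 CPM in steady state, adjusted p = 0.0499). Without any single library other than day 12 replicate 3, Dhx58 lost its call (adjusted p = 0.0600 to 0.127), and without any other than day 12 replicate 3 or 4 so did Eif2ak2 (0.0571 to 0.176). The helicase genes Ifih1 (88.7 ± 16.7 CPM at day 12, 63.7 ± 5.94 CPM in steady state, adjusted p = 0.0568) and Rigi (83.6 ± 16.7 CPM at day 12, 66.4 ± 6.57 CPM in steady state, adjusted p = 0.194) and the RNA deaminase gene Adar (138 ± 21.2 CPM at day 12, 106 ± 9.20 CPM in steady state, adjusted p = 0.0878) did not pass. In Ifih1 the groups did not overlap, and its adjusted p was 0.0283 in DESeq2. In edgeR it was 0.0838 to 0.201 without day 12 replicate 1 or 2 or any steady-state library.

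The Isg15 system attaches Isg15 to proteins and takes it off again. Isg15 itself (ENSMUSG00000035692, chromosome 4, 156283912 to 156285253) had 10.7, 14.3, 5.42 and 15.1 CPM at day 12 and 4.06, 2.32 and 5.14 CPM in steady state. Replicate 3 exceeded the highest steady-state library only narrowly, and the gene rose (log2 fold change 1.57, SE 0.39, edgeR adjusted p = 0.0209). The call was lost without day 12 replicate 4 (adjusted p = 0.0517) or steady-state replicate 1 (0.0671) or 2 (0.0756). Herc6, which encodes the main Isg15 ligase of the mouse, had 51.0, 49.8, 29.0 and 34.2 CPM at day 12 and 22.7, 17.3 and 22.0 CPM in steady state (log2 fold change 0.99, adjusted p = 0.0110, but 0.0591 without steady-state replicate 2). Usp18, the protease that removes Isg15 and damps signalling at Ifnar2, had 17.6, 22.9, 7.68 and 20.4 CPM at day 12 and 10.7, 8.71 and 12.2 CPM in steady state. It did not pass (adjusted p = 0.167), replicate 3 was below all steady-state libraries, and without it the adjusted p was 0.00580.

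The antiviral enzymes and MX proteins were mixed. Samhd1 (ENSMUSG00000027639, chromosome 2, 156939453 to 156977185), which lowers the pool of deoxynucleotides, had 1082, 999, 850.2 and 1168 CPM at day 12 and 506, 449 and 512 CPM in steady state. It rose with little spread (log2 fold change 1.07, SE 0.14, edgeR adjusted p = 0.000879). Rsad2 (viperin; ENSMUSG00000020641, chromosome 12, 26492745 to 26506451) had 20.4, 26.4, 7.0 and 18.7 CPM at day 12 and 5.66, 5.83 and 7.31 CPM in steady state. Replicate 3 was within the steady-state range, and the call (log2 fold change 1.53, adjusted p = 0.0263) was lost without day 12 replicate 1 (adjusted p = 0.0527) or 4 (0.0699), without steady-state replicate 1 (0.0959), 2 (0.101) or 3 (0.0703), and with no filter on low counts (0.0937). Its neighbour Cmpk2, a nucleotide kinase of mitochondria, had 43.4, 49.9, 21.6 and 48.0 CPM at day 12 and 25, 19.6 and 25.2 CPM in steady state and did not pass (adjusted p = 0.0629, and 0.00162 without day 12 replicate 3). Mx1, a dynamin-like GTPase, had 35.2, 51.2, 16.6 and 29.8 CPM at day 12 and 28.1, 18.7 and 27.9 CPM in steady state (adjusted p = 0.436). The groups overlapped, as they did for Mx2 (7.87 ± 1.93 CPM at day 12, 6.51 ± 1.08 CPM in steady state) and for the exonuclease gene Isg20 (6.00 ± 1.46 CPM at day 12, 8.87 ± 0.965 CPM in steady state, adjusted p = 0.0826, and 0.0273 without day 12 replicate 2).

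**Figure D4:**
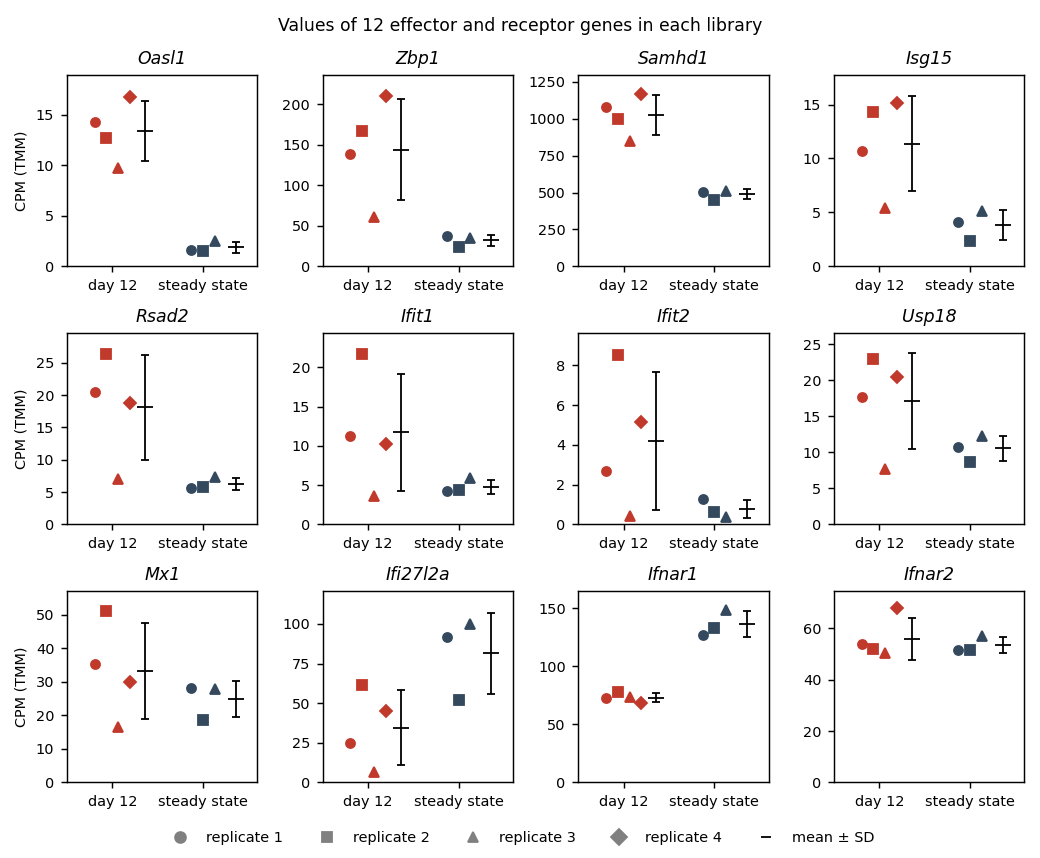
CPM (y axis, starting at 0) of 12 genes in each library, day 12 left of steady state, with mean ± SD beside the points. Day 12 replicate 3 (red triangle) is above steady state for Oasl1, Zbp1, Samhd1 and Isg15, and within or below it for Rsad2, Ifit1, Ifit2, Usp18, Mx1, Ifi27l2a, Ifnar1 and Ifnar2.

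The IFIT proteins bind RNA that lacks the marks of the host's own caps, and none of their 5 genes passed. Ifit1 (ENSMUSG00000034459, chromosome 19, 34618271 to 34627409) had 11.3, 21.7, 3.63 and 10.2 CPM at day 12 and 4.21, 4.40 and 5.84 CPM in steady state. Replicate 3 lay below steady state while the other day 12 libraries lay above it (log2 fold change 1.28, SE 0.51, edgeR adjusted p = 0.123, and 0.00801 without replicate 3). Ifit2 had 2.7, 8.52, 0.395 and 5.17 CPM at day 12 and 1.28, 0.616 and 0.383 CPM in steady state (log2 fold change 2.46, SE 0.93, adjusted p = 0.107, and 0.00692 without day 12 replicate 3). Its day 12 values spanned a 21.6-fold range, and the low ones rest on few reads (15 in day 12 replicate 3, against 43, 22 and 12 in steady state). Ifit3 had 4.16, 9.73, 0.816 and 4.85 CPM at day 12 and 3.65, 2.07 and 4.63 CPM in steady state (log2 fold change 0.50, adjusted p = 0.654, and -0.05 without day 12 replicate 2), and Ifit3b averaged 1.08 ± 0.798 CPM at day 12 and 0.979 ± 0.363 CPM in steady state. Ifit1bl1 was close to the floor, with 3, 17, 4 and 14 reads at day 12 and 3, 12 and 3 reads in steady state.

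Of the 8 genes of membrane and small interferon-induced proteins 2 rose and none fell. Ifitm6 (ENSMUSG00000059108, chromosome 7, 140595612 to 140597837), a relative of the IFITM proteins that block virus fusion, had 165, 179, 192 and 119 CPM at day 12 and 68.1, 72.3 and 78.7 CPM in steady state. Replicate 3 was the highest library for this gene, unlike any other of the 58, and Ifitm6 rose (log2 fold change 1.17, SE 0.16, edgeR adjusted p = 0.00138). Ifitm1 (ENSMUSG00000025491, chromosome 7, 140547134 to 140549738) had 5.30, 2.44, 5.0 and 5.66 CPM at day 12 and 0.979, 1.32 and 1.72 CPM in steady state (log2 fold change 1.78, adjusted p = 0.00607), with replicate 2 the lowest of day 12. Ifitm3, which restricts viruses in endosomes, averaged 657 ± 157 CPM at day 12 and 590.0 ± 85.0 CPM in steady state, and Ifitm2 145 ± 12.9 CPM at day 12 and 142 ± 13.9 CPM in steady state, and neither passed. Bst2 (tetherin), which holds budding virus at the cell surface, had 56.4, 68.5, 42.5 and 86.9 CPM at day 12 and 54.5, 50.6 and 66.6 CPM in steady state (adjusted p = 0.675). Ifi27l2a had 24.9, 61.3, 6.71 and 44.8 CPM at day 12 and 91.8, 52.3 and 100.1 CPM in steady state. Its log2 fold change was the lowest of the 58 (-1.24, SE 0.64), but replicate 2 lay within the steady-state range and it did not pass (adjusted p = 0.227). Ifi27 (108 ± 13 CPM at day 12, 107 ± 8.41 CPM in steady state) and Rtp4, a chaperone of receptors (97.1 ± 35.2 CPM at day 12, 66.0 ± 16.1 CPM in steady state, adjusted p = 0.278), did not pass either.

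Of the 4 genes of ADP-ribosylation 3 rose, and in those 3 every day 12 library exceeded steady state. Parp9 (ENSMUSG00000022906, chromosome 16, 35758840 to 35792975) had 98.6, 96.2, 66.2 and 90.8 CPM at day 12 and 48.9, 43.8 and 49.5 CPM in steady state (log2 fold change 0.89, SE 0.15, edgeR adjusted p = 0.00302). Its partner Dtx3l, a ubiquitin ligase (ENSMUSG00000049502, chromosome 16, 35746881 to 35759521), had 151, 145, 103 and 148 CPM at day 12 and 82.8, 70.6 and 82.9 CPM in steady state (log2 fold change 0.80, SE 0.15, adjusted p = 0.00597). The genes lie head to head and overlap by 682 bases on opposite strands, so some reads could belong to either where strand was ignored, which the sources used here leave unstated. Parp12 averaged 86.0 ± 15.9 CPM at day 12 and 59.4 ± 4.56 CPM in steady state (adjusted p = 0.0369, but 0.0649 to 0.152 without day 12 replicate 1 or 2 or any steady-state library). Parp14 had 308, 263, 226 and 241 CPM at day 12 and 214, 177 and 219.8 CPM in steady state, with no overlap of the groups, and did not pass (adjusted p = 0.103).

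No gene of the IFI200 family, whose proteins bind DNA in the cytosol and nucleus, passed. Mndal had 252, 236, 184 and 146 CPM at day 12 and 168, 126 and 158 CPM in steady state (log2 fold change 0.44, edgeR adjusted p = 0.143, and 0.0239 without day 12 replicate 4). Ifi209 had 28.3, 58.2, 17.4 and 23.7 CPM at day 12 and 51.6, 50.1 and 57.1 CPM in steady state (log2 fold change -0.73, adjusted p = 0.209, and 0.00341 without day 12 replicate 2). Replicate 2 was above the steady-state libraries for Ifi209 and the other day 12 libraries were all below them. Ifi207 had 129, 162, 84.7 and 116 CPM at day 12 and 133, 158 and 165 CPM in steady state (adjusted p = 0.307). Ifi203, Ifi204, Ifi205 and Ifi211 had log2 fold changes of 0.11, -0.07, 0.27 and 0.11, and the sign of Ifi204 and Ifi211 turned when some single libraries were left out.

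The nuclear and remaining effectors did not pass either. Xaf1, a pro-apoptotic zinc finger protein, had 35.9, 41.1, 19.9 and 35.1 CPM at day 12 and 20.3, 17.3 and 22.7 CPM in steady state (log2 fold change 0.72, edgeR adjusted p = 0.0522, and 0.00322 without day 12 replicate 3). Phf11d had 56.5, 59.8, 31.7 and 44.5 CPM at day 12 and 36.6, 30.3 and 33.9 CPM in steady state (adjusted p = 0.105, and 0.0132 without day 12 replicate 3). Both had replicate 3 within the steady-state range. Ifi35 had 41.4, 45.3, 28.0 and 56.6 CPM at day 12 and 29.5, 31.7 and 29.7 CPM in steady state (adjusted p = 0.116, and 0.0125 without day 12 replicate 3). Ifi44 had 1.43, 4.20, 0.342 and 2.21 CPM at day 12 and 0.890, 0.224 and 0.575 CPM in steady state (log2 fold change 1.86, SE 0.77, adjusted p = 0.127, and 0.0232 without day 12 replicate 3). Replicate 3 was the lowest day 12 library in both genes, and in Ifi44 it had 13 reads, against 30, 8 and 18 reads in the steady-state libraries. Slfn2, which guards T cell quiescence and binds transfer RNA, had 207, 259, 190.1 and 208 CPM at day 12 and 184, 154 and 203 CPM in steady state (adjusted p = 0.232). Sp100, a nuclear body protein, Phf11b, Slfn5, Slfn8, Samd9l and Epsti1 had log2 fold changes of 0.02, 0.58, 0.30, 0.09, 0.09 and -0.18, and the sign of Sp100 turned without day 12 replicate 1 or 2 or steady-state replicate 2.

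Per kilobase of exon (lengths from GENCODE M21), Ifitm3 was the most abundant of the 58 genes in both groups, at 969 ± 232 CPM per kb at day 12 and 870.2 ± 125 CPM per kb in steady state. Ifitm2 had rank 2 in both (221 ± 19.7 CPM per kb at day 12, 217 ± 21.3 CPM per kb in steady state). Ifi27l2a had rank 7 at day 12 and rank 3 in steady state (74.4 ± 51.3 CPM per kb at day 12, 176 ± 55.2 CPM per kb in steady state), and its steady-state spread overlaps that of Ifitm2. Ifitm6 had rank 3 at day 12 and rank 5 in steady state (181 ± 34.9 CPM per kb at day 12, 80.7 ± 5.90 CPM per kb in steady state).

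The promoter letters can be set beside the fold changes. Of the 22 genes with the GAAA pairs 4 rose, with a median log2 fold change of 0.30, and of the 23 without them 7 rose and 1 fell, with a median of 0.53. Over all genes tested 10.1% were higher and 10.2% lower. Isg15, Oas3, Rsad2 and Eif2ak2 are the risers with the letters, whereas Oasl1, Samhd1, Ifitm6 and Dtx3l rose and have none in the window. Replicate 3 was the lowest day 12 library in 18 of the 22 and in 19 of the 23 genes, against 23.9% of all genes tested. These counts were not tested, and 13 of the 58 genes, Zbp1 among them, have no window here.

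Of 43 other genes of the pathway, 32 passed the filter, and of these 9 rose and 4 fell, where 10.1% of all genes tested were higher and 10.2% lower. The share that fell was close to that of all genes. None of the 9 interferon ligand genes in the list passed the filter. Ifnb1, Ifna1, Ifna2, Ifna4, Ifne, Ifnl2 and Ifnl3 had no read in any library, while Ifng had reads only in day 12 replicate 2 (0.0754 CPM) and Ifnk only in steady-state replicate 1 (0.0297 CPM). A count of 0 allows up to 0.0777 to 0.0935 CPM, taken on total counts before normalisation. This does not hold for Ifnk, Ifnl2 and Ifnl3, where reads may not have been counted. Ifnl2 and Ifnl3 overlap the more abundant Samd4b by 1620 bases on its strand and by 1487 bases on the other strand. Ifnk overlaps the more abundant Mob3b by 1950 bases on the other strand. Stat2, which acts in the complex with Irf9, had 189, 173, 123 and 216 CPM at day 12 and 86.2, 68.9 and 88.5 CPM in steady state (log2 fold change 1.11, SE 0.19, edgeR adjusted p = 0.00347). Irf9, the DNA-binding subunit of that complex, had 107, 99.8, 87.3 and 101 CPM at day 12 and 89.1, 81.0 and 93.5 CPM in steady state and did not pass (adjusted p = 0.311). Irf7, which amplifies interferon production, had 194, 169, 96.7 and 249 CPM at day 12 and 59.4, 48.1 and 70.7 CPM in steady state (log2 fold change 1.57, SE 0.29, adjusted p = 0.00639). In these 3 genes replicate 3 was the lowest of day 12 and still above steady state in Stat2 and Irf7. Irf7 overlaps Phrf1 on the other strand by 45 bases, and Irf9 overlaps Rnf31 on its own strand by 123 bases.

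The 4 further pathway genes with the lowest p were even between day 12 libraries or apart in replicate 4. The RNA sensor gene Tlr7 had 76.3, 81.6, 68.2 and 46.3 CPM at day 12 and 186, 193 and 237 CPM in steady state and fell (log2 fold change -1.59, SE 0.19, edgeR adjusted p = 0.000591). Irf5, which acts downstream of Tlr7, had 116, 109, 105 and 124 CPM at day 12 and 177, 162 and 184 CPM in steady state (log2 fold change -0.62, adjusted p = 0.00302), and overlaps Tnpo3 on the other strand. The co-repressor gene Irf2bp2 had 88.1, 92.3, 89.7 and 108 CPM at day 12 and 148, 145 and 158 CPM in steady state (log2 fold change -0.67, adjusted p = 0.00249). Socs3, a cytokine signalling inhibitor, had 369.7, 382, 381 and 659.7 CPM at day 12 and 128, 150.1 and 149 CPM in steady state (log2 fold change 1.65, adjusted p = 0.00104). Each of these genes had no overlap between the groups. Of the receptor kinases, Jak1 (309 ± 39.3 CPM at day 12, 291 ± 8.24 CPM in steady state) and Tyk2 (118 ± 14.3 CPM at day 12, 117 ± 1.95 CPM in steady state) did not pass.

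**Figure D5:**
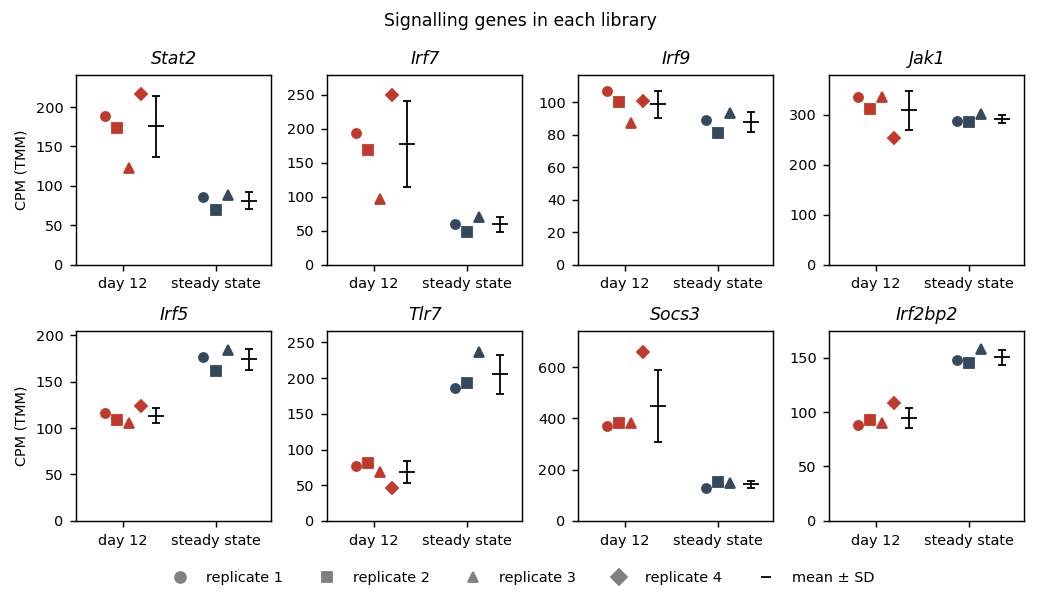
CPM (y axis, starting at 0) of 8 signalling genes in each library, day 12 left of steady state, with mean ± SD beside the points. Stat2, Irf7 and Socs3 are higher and Irf5, Tlr7 and Irf2bp2 lower at day 12 without overlap, while Irf9 and Jak1 overlap.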

How the data were processed

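The authors deposited raw read counts per Ensembl gene for 7 libraries, 1 column each and not normalised; per the labels' protocols, poly-A RNA of sorted cells went into directional libraries. The submitters' processing notes name GRCm39 and list DESeq2 1.40.2, Subread 2.0.6 with featureCounts, SAMtools 1.10, STAR 2.7.11a and FastQC. Annotation release and strand setting: not given in the sources used here. Groups came from the sample titles, which give 4 day 12 libraries where the extract protocol speaks of 3 replicates per condition. The titles do not say that libraries came from separate animals, although the protocol calls them biological replicates; p-values therefore reflect only how far these libraries vary, which may be technical.

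The whole table was tested with edgeR 4.0.16 in R 4.3.3 (quasi-likelihood, robust, TMM, filterByExpr with a minimum count of 10 and total of 15), with Benjamini-Hochberg adjustment over 15981 genes and a threshold of 0.05. The standard error is the absolute log2 fold change over the square root of F. The fitting was tested on simulated counts. DESeq2 1.42.0, other scalings and filters, a replicate block and the omission of each library were tried as alternatives. Promoter windows are RefSeq's, in GRCm38.p6. Floors cover counting error only, whereas SD and SE include the variation between libraries. The genes and lists were chosen with earlier results of these data known. Values were given in every library for the 3 genes of each role with the lowest p (2 in roles of 4 or fewer), with the OAS genes and other sensors taken as 1 role, for 9 fixed genes, and for 5 fixed and the 4 further signalling genes with the lowest p; 1 of the fixed signalling genes is not reported here. Other genes named were chosen after their values were seen.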

Additional observations from a re-analysis of the deposited data

Results flagged for a closer look

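In 38 genes with values in every library, the day 12 library farthest from the others was compared with the range of the group, a check that chance passes in about 1 of 20 groups. Oas2 had 411 CPM in replicate 1 against 316, 317 and 328 CPM in the others, a gap of 0.869 of the range. Dtx3l had 103 CPM in replicate 3 against 145 to 151 CPM, a gap of 0.881 of the range. Socs3 had 659.7 CPM in replicate 4 against 369.7 to 382 CPM, a gap of 0.959 of the range.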

How the results depend on the processing

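The 15 rises of the 58 genes became 9 with a replicate block, and 9 to 30 with 1 library left out (9 without steady-state replicate 2, 30 without day 12 replicate 3); 8 of the 9 under the block were among the 15. The block is not part of the design, since the labels name no pairs or batches. Same-numbered libraries had correlations of deviations of -0.168, 0.046 and 0.256, the last being the highest of all pairs. With so few libraries these values cannot decide whether libraries were paired. Of the 15, 9 passed in every fit that left out 1 library (Oas2, Oas3, Oasl1, Zbp1, Samhd1, Ifitm1, Ifitm6, Parp9 and Dtx3l), and of these Oas3 and Zbp1 lost their call under the block (adjusted p = 0.132 and 0.0938). The single fall, Ifnar1, passed in every fit, and the number of falls was 1 to 3 with 1 library left out, 3 without day 12 replicate 2 (Isg20 and Ifi209 added). Rises among signalling genes numbered 5 to 9 with 1 library left out, 5 without steady-state replicate 2 or 3. DESeq2 gave 20 rises among the 58 genes, and 13 rose with no filter on low counts (Oas3, Dhx58 and Rsad2 lost, Ifih1 gained). Shares of all genes were computed only for the fit over all libraries and the fit without day 12 replicate 3. In the other fits, a change in these counts cannot be told apart from a change in calls over all genes. Signs turned for 9 of the 58 genes, none of which passed in any fit. They were Ifit3 (-0.05 to 0.86 with 1 library left out), Ifnar2 (-0.04 to 0.13, and -0.04 with the block), Bst2 (-0.03 to 0.31, and -0.05 with the block), Ifit3b (-0.45 to 0.44), Ifi204 (-0.24 to 0.05), Ifi211 (-0.07 to 0.29), Sp100 (-0.09 to 0.14), Ifi27 (-0.06 to 0.09) and Ifitm2 (-0.03 to 0.09). A longer element (the GAAA pair followed by C) was in 13 and a shorter one (GAAA, any 2 bases, GA) in 29 of the 45 promoter windows, in place of 22. Of all genes with a window, 0.944% had the longer element and 23.4% the shorter one, in place of 3.99%. The cause of these differences was not tested. Counts under 20 in at least 1 library limit Ifit1bl1, Ifit2, Ifit3b and Ifi44.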
